A study of Bos taurus with 4 samples.

Results

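Fibroblast growth factor (FGF) signalling was followed through 10 genes in bovine blastocysts: the ligands FGF2 and FGF4, the receptors FGFR1, FGFR2, FGFR3 and FGFR4, the adaptor GRB2, and the feedback inhibitors SPRY2, SPRY4 and DUSP6. Members were all probes whose symbol in the platform annotation was one of these names, which gave 15 probes for 10 genes out of 43794 probes and 15229 named genes. Blastocysts were made in vitro by fertilising oocytes from slaughterhouse ovaries (Bos taurus) with semen of bulls aged 12 months or 16 months. Each of 4 arrays carried RNA of both ages, labelled as biological replicates, and the labels name 4 bulls collected at both ages without tying a bull to an array. The 12-month RNA was in the red dye Cy5 on arrays 1 and 2 and in the green dye Cy3 on arrays 3 and 4. The RNA was amplified before labelling, and how many embryos each extract came from was not known. RNA of whole blastocysts was measured, so fewer cells of a type and less RNA per cell cannot be told apart.

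FGFs are secreted proteins that bind receptor tyrosine kinases at the cell surface. Activated receptors recruit GRB2, which brings the exchange factor SOS to RAS and starts the RAF, MEK and ERK kinase cascade. In the mouse blastocyst, cells of the future epiblast secrete FGF4, and ERK activity in neighbouring inner cells favours primitive endoderm, the layer that lines the yolk sac, over epiblast. In cattle, FGF2 is also made by the uterus and raises interferon tau production by trophectoderm, the outer layer of the embryo. Sprouty proteins (SPRY2, SPRY4) and the ERK phosphatase DUSP6 are induced by the pathway and dampen it.

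The 10 genes showed no difference between the ages that passed the test, and most ratios were small. In limma with Benjamini-Hochberg adjustment over all probes, 0 of 9 member probes bright enough to be tested passed an adjusted p of 0.05, and so did 0% of all 30986 probes tested. At an unadjusted p under 0.05 stood 1 of the 9, a probe of FGFR4, against 5.81% of all probes tested. In its direction, lower with 12-month semen, stood 2.79% of all probes tested, and 3.01% stood in the other direction, where no member probe did. Of the 15 member probes, 4 had a mean log2 ratio of 12 over 16 months above 0 and 11 below. Over all tested probes, 15775 were above 0 and 15211 below. None of the 15, tested or not, had the same sign on all 4 arrays. Among the tested probes measured on every array, 10.4% did. The mean ratio was smaller than its SD over arrays for 13 of the 15 probes, and the share among all tested probes was not counted. The median size of the mean log2 ratio was 0.056 for the 15 member probes, tested or not, and 0.083 for all tested probes. The median SD over arrays, which includes any dye effect, was 0.15 for the member probes and 0.21 for all tested probes.

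**Figure D1:**
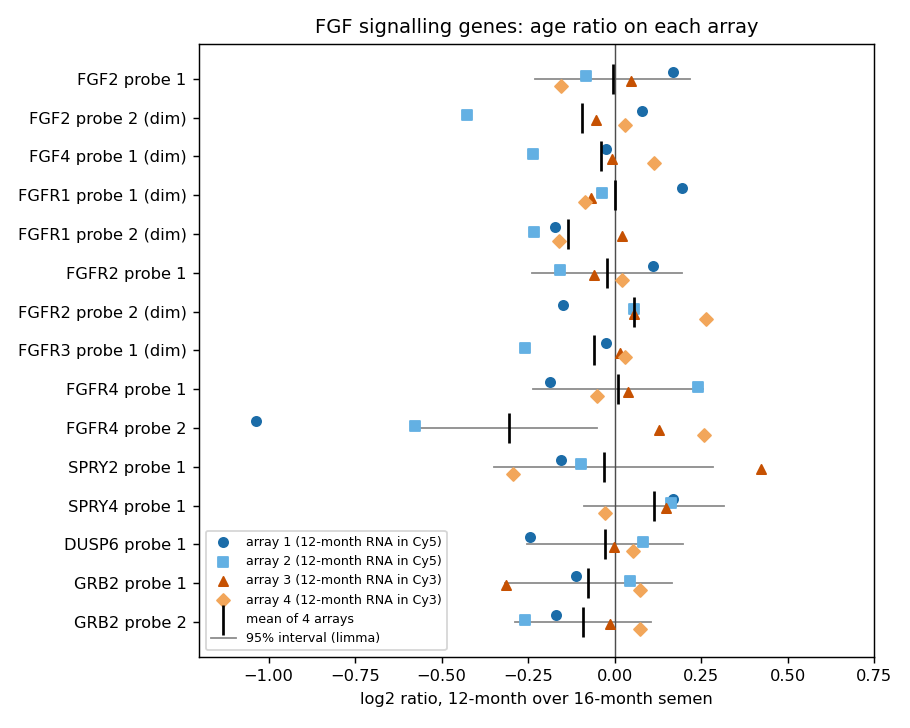
Log2 ratio of 12-month over 16-month semen for the 15 probes (rows) on each of the 4 arrays (coloured points), with the mean (black bar) and, for the 9 tested probes, the 95% interval from limma (grey line); probes marked dim were above background in fewer than 4 of 8 channel signals. The points of 14 probes lie between -0.43 and 0.42, and FGFR4 probe 2 reaches -1.04 on array 1.

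The direction of the member ratios differed between arrays. On each of arrays 1 and 2, with 12-month RNA in Cy5, 5 member probes were higher with 12-month semen and 10 were lower. With 12-month RNA in Cy3, 8 were higher and 7 lower on array 3, and 9 were higher and 6 lower on array 4. These counts include the probes too dim to be tested. The member medians were -0.11, -0.098, 0.016 and 0.029 on the log2 scale for arrays 1 to 4. Those of all tested probes were 0.0020, 0.015, -0.0049 and -0.0012. Across all tested probes, the ratios of arrays 1 and 2 correlated at 0.33 and those of arrays 3 and 4 at -0.15. These correlations are across probes, which are not independent replicates.

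Brightness separated the probes that could be read from those that could not. The level for calling a channel signal above background was set in each array and channel by its 153 negative control spots, at the 95th percentile of their background-subtracted brightness. Of the 15 member probes, 7 were above background in all 8 channel signals, as were 45.5% of all probes. The filter for testing, at least 4 of 8 signals, was met by 9 of the 15 and by 70.8% of all probes. The 7 were FGFR2 probe 1, both FGFR4 probes, SPRY2, SPRY4, DUSP6 and GRB2 probe 1, where probe 1 is the brighter and probe 2 the dimmer probe of a gene. At the 99th percentile in place of the 95th, FGFR2 probe 1, both FGFR4 probes, SPRY2 and GRB2 probe 1 kept 8 of 8 signals, and SPRY4 and DUSP6 had 7 each. A signal at the level of the negative controls sets only a bound and does not show that a transcript was absent.

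**Figure D2:**
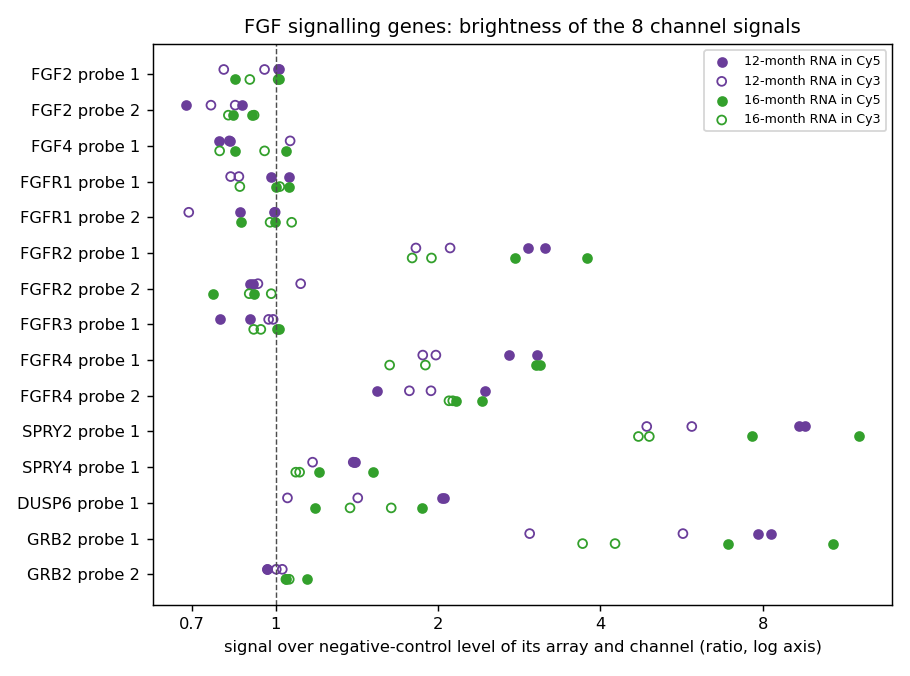
Brightness of each of the 15 probes as the ratio of its background-subtracted signal to the negative-control level of the same array and channel (log axis, dashed line at 1), for 12-month RNA (violet) and 16-month RNA (green) in Cy5 (filled) or Cy3 (open). SPRY2 reaches 12.1 times the level and GRB2 probe 1 reaches 10.8 times, whereas FGF2, FGF4, FGFR1, FGFR3 and the dimmer probes of FGFR2 and GRB2 gather around 1.

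The ligands lay at the background of the arrays. FGF4, the ligand of the epiblast in mouse, was above background in 1 of 4 signals of either age, with 8 signals between 0.785 and 1.06 times the negative-control level. FGF4 was not tested, and its log2 ratios of 12 over 16 months were -0.025, -0.24, -0.0091 and 0.11 on arrays 1 to 4. The arrays of FGF4 thus fell on both sides of 0.

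FGF2 probe 1 was above background in 2 of 4 signals of either age, with 8 signals between 0.801 and 1.015 times the negative-control level. The ratios of this probe were 0.17, -0.084, 0.046 and -0.15 on the log2 scale on arrays 1 to 4, a mean of -0.0058 ± 0.14 (SD, n = 4). Arrays 1 and 3 were above 0 and arrays 2 and 4 below, so the dye orientations overlapped. In limma its 95% interval ran from -0.23 to 0.22 (adjusted p = 0.994). FGF2 probe 2 was above background in 0 of 8 signals, and its log2 ratios ran from -0.43 on array 2 to 0.078 on array 1.

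Of the 4 receptors, FGFR2 and FGFR4 had probes well above background, and FGFR1 and FGFR3 did not. FGFR2 encodes a receptor whose loss in the mouse impairs trophectoderm derivatives and primitive endoderm. With 12-month semen, FGFR2 probe 1 had background-subtracted brightness of 197, 250, 475 and 409 scanner units on arrays 1 to 4. With 16-month semen, it had 480, 514, 360 and 183. Cy3 gave the higher number on every array, whichever age it carried. After normalisation the log2 ratios were 0.11, -0.16, -0.060 and 0.022, a mean of -0.022 ± 0.11 (SD, n = 4). The signs split evenly within each dye orientation, and the 95% interval in limma ran from -0.24 to 0.19 (adjusted p = 0.970). Expressed as a fold of 12 over 16 months, this interval spans 0.848 to 1.14. FGFR2 probe 2 was above background in 1 of 8 signals and was not tested, with log2 ratios from -0.15 to 0.26.

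FGFR1, the main receptor for FGF4 in the mouse inner cell mass, had 2 dim probes. Probe 1 was above background in 3 of 8 signals, 1 of the 12-month and 2 of the 16-month RNA, and its log2 ratios were 0.19, -0.038, -0.068 and -0.085 on arrays 1 to 4. Probe 2 was above background in 1 of 8 signals, on array 1 in the 16-month RNA, with log2 ratios of -0.17, -0.23, 0.022 and -0.16. Both ages of probe 2 lay at background, so no fold is given and the probe was not tested. FGFR3 was above background in 0 of 4 signals of the 12-month RNA and in 2 of 4 of the 16-month RNA, with 8 signals between 0.788 and 1.01 times the negative-control level. The log2 ratios of FGFR3 were -0.025, -0.26, 0.016 and 0.031, on both sides of 0, and no fold is given for signals at background.

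FGFR4 had 2 probes that were above background in all 8 signals and that differed from each other. The receptor encoded by FGFR4 binds FGF19 as well as other FGFs and is best known in liver. With 12-month semen, probe 1 had brightness of 169, 259, 447 and 421 scanner units on arrays 1 to 4, and with 16-month semen 508, 430, 290 and 204. The log2 ratios of probe 1 were -0.19, 0.24, 0.038 and -0.051, a mean of 0.010 ± 0.18 (SD, n = 4). The arrays of probe 1 thus lay on both sides of 0 in each dye orientation, and its 95% interval in limma ran from -0.24 to 0.26 (adjusted p = 0.991).

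With 12-month semen, FGFR4 probe 2 had brightness of 96, 208, 399 and 436 scanner units on arrays 1 to 4, and with 16-month semen 562, 563, 206 and 159. Its log2 ratios were -1.04, -0.58, 0.13 and 0.26, so both arrays with 12-month RNA in Cy5 were below 0 and both with 12-month RNA in Cy3 were above. The mean was -0.31 ± 0.61 (SD, n = 4), a fold of 0.809 for 12 over 16 months. In limma, which takes out a dye effect, the 95% interval ran from -0.56 to -0.051, with an unadjusted p of 0.0259 and an adjusted p of 0.821.

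The dye effect of FGFR4 probe 2, Cy5 over Cy3, was -0.50 on the log2 scale. A larger dye effect in either direction was found for 0.81% of tested probes, and the median size over tested probes was 0.096. For FGFR4 probe 1 the dye effect was 0.017. The ratios of the 2 FGFR4 probes had the same sign on 2 of 4 arrays, and their means differed by 0.32. The platform annotation gives both probes the same symbol, and probe sequences were not used here. The value of probe 2 depended on the processing. It was -0.13 with the mean in place of the median of the spot's pixels (unadjusted p = 0.0762 in limma), -0.20 without background correction (unadjusted p = 0.0972) and -0.19 without array 1 (unadjusted p = 0.0960). Without array 2 it was -0.42 (unadjusted p = 0.0109 in limma), without array 3 -0.27 (unadjusted p = 0.0750) and without array 4 -0.34 (unadjusted p = 0.0309). After median centring in place of loess it was -0.48 (unadjusted p = 0.00902 in limma), where the median of all probes was -0.14. With no dye term in the model, the unadjusted p was 0.181.

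**Figure D3:**
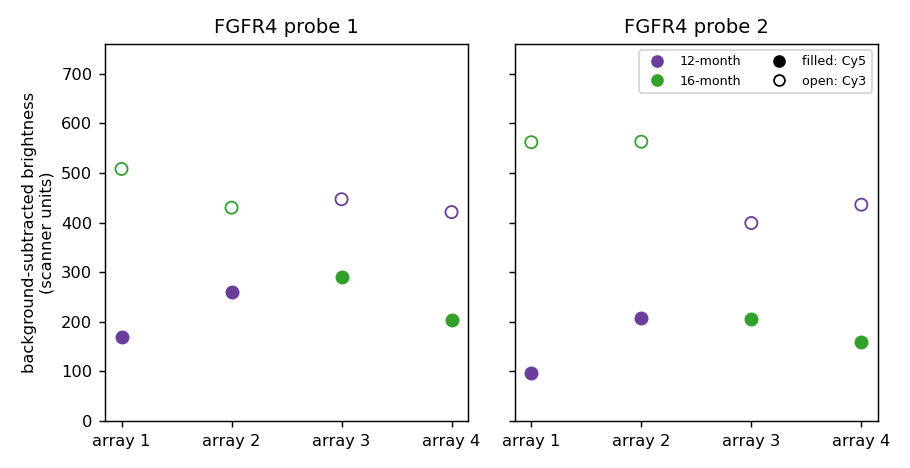
Background-subtracted brightness in scanner units of the 2 FGFR4 probes on each array, for 12-month (violet) and 16-month RNA (green) in Cy5 (filled) or Cy3 (open). In probe 2 the Cy3 signal stands at 562 and 563 on arrays 1 and 2, where it carries 16-month RNA, and at 399 and 436 on arrays 3 and 4, where it carries 12-month RNA.

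GRB2, the adaptor that links activated receptors to RAS, was read on 2 probes with similar means. With 12-month semen, probe 1 had brightness of 518, 665, 667 and 1279 scanner units on arrays 1 to 4, and with 16-month semen 1142, 980, 659 and 714. The log2 ratios of GRB2 probe 1 were -0.11, 0.044, -0.31 and 0.073, a mean of -0.077 ± 0.18 (SD, n = 4), with array 3 lowest. The 95% interval in limma ran from -0.32 to 0.16 (adjusted p = 0.886). Each dye orientation held 1 array above 0 and 1 below.

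GRB2 probe 2 was above background in 6 of 8 signals, 2 of the 12-month and 4 of the 16-month RNA. Its log2 ratios were -0.17, -0.26, -0.013 and 0.074, a mean of -0.091 ± 0.15 (SD, n = 4), with an adjusted p of 0.845 in limma. Only array 4 was above 0 for this probe, and the probes shared their sign on 3 of 4 arrays. At the 99th percentile of the negative controls, probe 2 kept 1 of 8 signals, so its ratio rests on dim signals.

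The feedback inhibitors were all measured in 8 of 8 signals. SPRY2, which restrains RAS activation, had brightness of 597, 794, 1333 and 1096 scanner units with 12-month semen on arrays 1 to 4, and 1322, 1244, 730 and 796 with 16-month semen. The log2 ratios of SPRY2 were -0.15, -0.098, 0.42 and -0.29, a mean of -0.031 ± 0.31 (SD, n = 4). Array 3 stood above 0 and the other arrays below. The 95% interval in limma ran from -0.35 to 0.29 (adjusted p = 0.970).

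SPRY4, a paralogue of SPRY2 with the same kind of role, had brightness of 87, 119, 314 and 263 scanner units with 12-month semen and 297, 288, 115 and 100 with 16-month semen. Its log2 ratios were 0.17, 0.16, 0.15 and -0.029, a mean of 0.11 ± 0.095 (SD, n = 4), a fold of 1.08. Arrays 1 to 3 lay close together above 0, and array 4 lay just below 0. In limma the 95% interval ran from -0.090 to 0.32 (adjusted p = 0.834). Its 8 signals were between 1.09 and 1.51 times the negative-control level, and with the mean of the spot's pixels its log2 ratio was -1.614e-05.

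DUSP6, a phosphatase that removes the activating phosphates from ERK, had brightness of 127, 174, 237 and 319 scanner units with 12-month semen and 439, 363, 113 and 123 with 16-month semen. The log2 ratios of DUSP6 were -0.24, 0.083, -0.0019 and 0.052, a mean of -0.027 ± 0.15 (SD, n = 4). Array 1 was the lowest and the other arrays lay near 0. The 95% interval in limma ran from -0.25 to 0.20, a fold of 0.840 to 1.15 (adjusted p = 0.961). The intervals of SPRY2, SPRY4 and DUSP6 all span 0, and a true change within them was not detectable with 4 arrays.

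The sign of these small means was not stable. Of the 9 tested member probes, 2 were higher and 7 lower with 12-month semen in the main setting, but 4 were higher and 5 lower without background correction, with the mean of pixels or in the authors' deposited table. FGFR4 probe 2, GRB2 probe 1 and GRB2 probe 2 stayed below 0 in each of these, as in the main setting. With the mean of pixels, however, GRB2 probe 2 lay almost at 0, at -0.0015. The mean of GRB2 probe 1 turned to 0.020 without array 3.

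**Figure D4:**
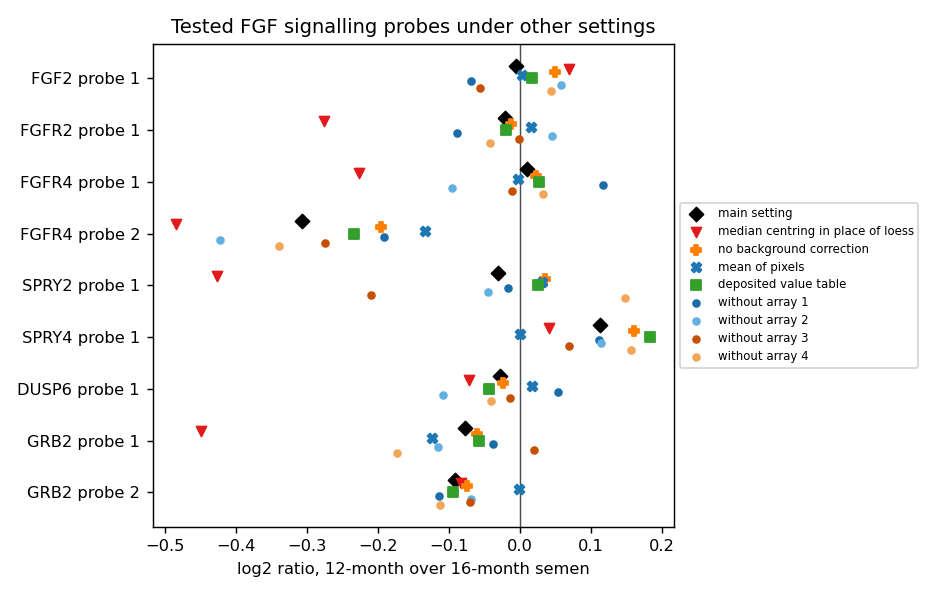
Log2 ratio of 12 over 16 months for the 9 tested probes (rows) in the main setting (black diamonds), under 4 other ways of making the values and with each array left out (small points). FGFR4 probe 2 lies below 0 in all of them, from -0.48 to -0.13. FGF2 probe 1, FGFR2 probe 1, FGFR4 probe 1, SPRY2, DUSP6 and GRB2 probe 1 fall on both sides of 0. SPRY4 lies above 0 except with the mean of pixels, at -1.614e-05.

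The other genes of the pathway gave no member past the threshold either. Of 74 further genes listed by role, 66 had a named probe and 46 had a tested probe measured on all arrays, each gene being represented by its brightest one. Of these 46, 0 passed an adjusted p of 0.05 in limma, as for all named genes, and 30 had a mean ratio above 0 and 16 below. Among all 11963 named genes treated the same way, 5993 stood above 0 and 5968 below. The median log2 ratio of the 46 was 0.019, against 0.00040 for these named genes. At an unadjusted p under 0.05 stood 3 of the 46, and 6.29% of all named genes did. The same sign on all 4 arrays was found for 5 of the 46 and for 10.6% of all named genes.

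Among further ligands, 9 of 17 with a named probe were tested, 4 higher and 5 lower, with a median of -0.024. FGF11, an intracellular FGF homologue, stood at 0.24 ± 0.51, from 0.83 on array 1 to -0.32 on array 4. FGF8, a secreted FGF of gastrulation, stood at -0.063 ± 0.24 (n = 4). The remaining 8, FGF7, FGF10, FGF16, FGF18 and FGF20 to FGF23, were above background in 0 to 3 of 8 signals, and FGF9, FGF14 and FGF17 were not analysed here. Like FGF4, these 8 ligands were too dim to be tested between the ages.

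Of 10 further receptors and coreceptors 8 were tested, 5 higher and 3 lower, with a median of 0.010. FGFRL1, a receptor without a kinase domain, stood at -0.10 ± 0.25, and SDC3, a heparan sulphate proteoglycan of the syndecan family, at 0.099 ± 0.24. Of 9 adaptors 6 were tested, 5 higher and 1 lower, with a median of 0.12 and array medians of 0.35, 0.26, -0.099 and -0.071, so arrays 1 and 2 lay above 0 and arrays 3 and 4 below. SOS1, the exchange factor that GRB2 carries to RAS, stood at -0.23 ± 0.19 and was lower on 4 of 4 arrays (unadjusted p = 0.0402, adjusted p = 0.821 in limma), while its other, dimmer probes, above background in 5 of 8 signals, stood at 0.14 and 0.12. Without array 2, SOS1 stood at -0.16 (unadjusted p = 0.12 in limma). PLCG1, a phospholipase bound by active receptors, stood at 0.17 ± 0.18 and was higher on 4 of 4. FRS2 and FRS3, the docking proteins between receptor and GRB2, were above background in 0 of 8 signals.

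Of 7 kinases and RAS proteins of the cascade 6 stood above 0 and 1 below, and the median was 0.022. MAP2K2, an ERK kinase, stood at 0.22 ± 0.54, with 0.62 and 0.72 on arrays 1 and 2 and -0.39 and -0.092 on arrays 3 and 4. Its dye effect, Cy5 over Cy3, was 0.45. ARAF, a RAF kinase, stood at 0.34, 0.18, -0.23 and 0.49 on arrays 1 to 4, a mean of 0.20 ± 0.31 (n = 4) that was 0.016 without array 4 and 0.37 without array 3. Of 7 tested inhibitors 3 stood above 0 and 4 below, and the median was -0.015. DUSP1, a phosphatase of MAP kinases, stood at 0.34 ± 0.13, with 0.50, 0.31, 0.19 and 0.37 on arrays 1 to 4, a fold of 1.27. All arrays of DUSP1 were above 0, and limma gave an unadjusted p of 0.00769 and an adjusted p of 0.821. After median centring in place of loess DUSP1 stood at -0.089, above the median of all probes of -0.14.

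SPRED2, an inhibitor of RAF activation, pointed the other way at -0.30 ± 0.22, lower on 4 of 4 arrays (unadjusted p = 0.0340, adjusted p = 0.821 in limma). Array 4 was lowest, at -0.61, and SPRED2 stood at -0.17 without array 4 (unadjusted p = 0.240 in limma) and at -0.43 without array 3 (unadjusted p = 0.00617). SPRY1, the sprouty paralogue of SPRY2 and SPRY4, was chosen after its values were seen, as the only other gene with 1 sign on all arrays. It stood at 0.15, 0.33, 0.059 and 0.18 on arrays 1 to 4, a mean of 0.18 ± 0.11 (n = 4). This probe was dim, above background in 4 of 4 signals of the 12-month and 2 of 4 of the 16-month RNA, and in 1 of 8 at the 99th percentile of the negative controls. Of 9 tested ERK target genes 7 stood above 0 and 2 below, and the median was 0.10. ETV1, an ETS transcription factor, stood at 0.31 ± 0.56 through array 3, at 1.15, with the other arrays at 0.091, -0.0022 and 0.0043, and at 0.024 without array 3. The other ETV1 probes were above background in 0 of 8 signals and were not tested. ETV5, a related factor, stood at 0.13 ± 0.33, with other probes at -0.12 and -0.14.

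**Figure D5:**
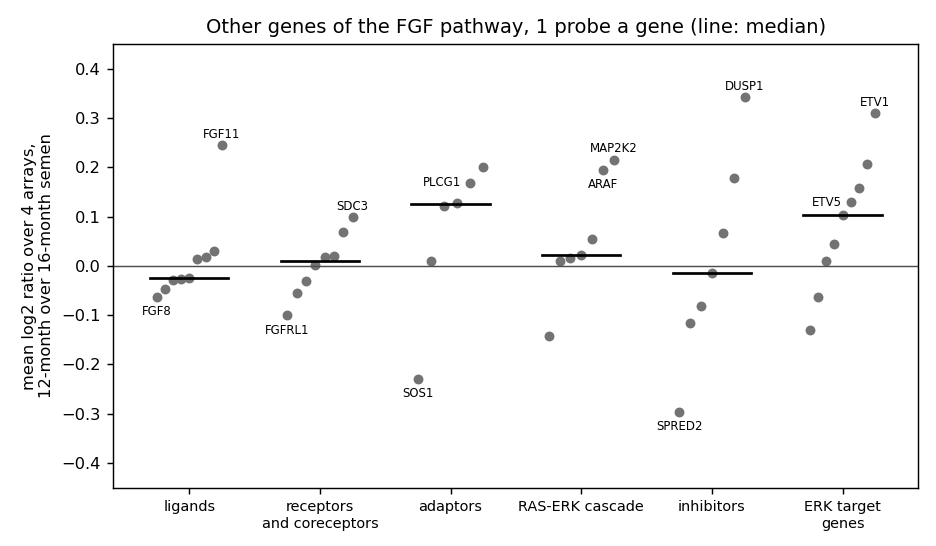
Mean log2 ratio of 12 over 16 months over the 4 arrays for 46 other genes of the FGF pathway, 1 point a gene at its brightest probe, by role, with the median of each role as a line. Points run from -0.30 for SPRED2 to 0.34 for DUSP1, and no gene passed the adjusted threshold.

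Markers of the cells between which FGF signalling divides the inner cell mass were measured beside it, and 0 passed an adjusted p of 0.05 in limma. SOX2 alone stood at an unadjusted p under 0.05 in the main setting, as did 6.29% of all named genes. Of 7 epiblast markers 5 were tested, 3 above and 2 below 0, and their median log2 ratio was 0.044. The pluripotency factor SOX2 stood at 0.22 ± 0.32 (unadjusted p = 0.0366, adjusted p = 0.821 in limma), above 0 on arrays 1 and 2 and below on arrays 3 and 4. Its dye effect was 0.27, and with no dye term the unadjusted p in limma was 0.134. SOX2 stood at 0.13 without background correction (unadjusted p = 0.210 in limma) and at 0.037 after median centring (unadjusted p = 0.702). With 1 array left out it ran from 0.18 to 0.26. LIN28A, an RNA-binding protein of pluripotent cells, stood at -0.14 ± 0.24. Of 7 primitive endoderm markers 5 were tested, 3 higher and 2 lower, with a median of 0.093. PDGFRA, a receptor of primitive endoderm, stood at 0.23 ± 0.25 with other probes at 0.058 and 0.13, and FOXA2 at -0.21 ± 0.28 (n = 4). The FOXA2 probe was dim, above background in 1 of 4 signals of the 12-month and 3 of 4 of the 16-month RNA. All 11 trophectoderm markers were above background in 8 of 8 signals, 7 higher and 4 lower, with a median of 0.026. Among these, IFNT, an interferon tau transcript, stood at 1.00, 1.42, -0.88 and 0.14 on arrays 1 to 4, a mean of 0.42 ± 1.02 (n = 4) with a dye effect of 0.79. Without array 4 IFNT stood at 0.16 (unadjusted p = 0.266 in limma), and without array 3 at 0.68 (unadjusted p = 0.000219, adjusted p = 0.128). KRT18, a keratin, stood at -0.18 ± 0.24. Of 10 cumulus and granulosa cell markers, 4 were tested and had mean ratios above 0, with a median of 0.13, INHBA at 0.15 ± 0.23 and PTX3 at 0.14 ± 0.25. Of this list CYP19A1, INHBA and GREM1 were above background in 8 of 8 signals and PTX3 in 5. At the 99th percentile of the negative controls CYP19A1 and INHBA kept 8, GREM1 5 and PTX3 1. HAS2, AMH and FOXL2 were above background in 0 of 8 signals, TNFAIP6 in 1, LHCGR in at most 2 and FSHR in 3. The array medians of the 4 tested markers were 0.36 and 0.24 with 12-month RNA in Cy5 and -0.019 and -0.0075 with it in Cy3. The part of other cell types in the member ratios was not tested.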

How the data were processed

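RNA was amplified, labelled with Cy3 or Cy5 and hybridised, per the labels' protocols. The deposited scanner files hold the intensity of each spot and its surroundings, per the file headers, with no background subtracted. The authors' deposited value table holds a log2 ratio per probe and array. Set against the scanner files after plain background subtraction and loess, it followed Cy5 over Cy3 of its own array (r from 0.983 to 0.993 over tested probes), with column medians of -0.016, -0.0019, -0.012 and -0.0063. Its exact steps stay unknown, and it served only as an alternative. The submitters' processing notes name limma.

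From the median intensities, background was corrected by normexp with an offset of 50 and ratios were normalised by loess within arrays, with control spots at weight 0 and ignored spots left out. Signs were turned on arrays 3 and 4, so that a value is the log2 ratio of 12 over 16 months. Probes above background in at least 4 of 8 channel signals entered limma (version 3.58.1, R 4.3.3), with a term for age and one for dye, two-sided. A check on simulated data held the fit only to returning planted changes on average, and no detection rate from it is given. Nothing ties the arrays to separate bulls, so p-values measure only spread between these 4 arrays, whose number limits the precision. That spread is what remains after the dye term, with each probe's variance drawn by limma toward that of all tested probes. The SDs printed beside the means still include the dye effect. The arrays share 1 slide by their names, and no batches of embryo culture or labelling were known.

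The members and lists were chosen with earlier results of these data known. Named list genes are, by role, the 2 with the smallest p, and any of 1 sign on all arrays past 0.3 either way; 4 arrays are too few to name genes by likeness of pattern. Symbols come from the platform annotation, and older ones were updated through the RefSeq gene table of ARS-UCD2.0. All 10 member symbols were current.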

Additional observations from a re-analysis of the deposited data

Results flagged for a closer look

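On 2 of 15 member probes 1 array stood far from the rest, by Dixon's 95% limit for 4 values, which chance passes in about 1 group in 20; among all tested probes the share was 5.32%. SPRY4 stood at -0.029 on array 4, against 0.15 to 0.17 on the other arrays. FGFR1 probe 1 stood at 0.19 on array 1, where its 12-month signal was not above background, against -0.085 to -0.038 elsewhere.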

How the results depend on the processing

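In limma, 0 member probes passed the adjusted threshold of 0.05 in any alternative run, and at an unadjusted p under 0.05 stood 0 to 3 of them. The 3 were found after median centring, where SPRY2 stood at -0.43 (unadjusted p = 0.00554, adjusted p = 0.0699), GRB2 probe 1 at -0.45 (unadjusted p = 0.0190) and FGFR4 probe 2 at -0.48. Against the median of all probes of -0.14 there, FGFR2 probe 1 stood at -0.28. Leaving out 1 array at a time, 0 to 27 of all probes passed the adjusted threshold, with 24 without array 3 and 27 without array 4. In these fits 1 dye orientation has a single array, whose spread is taken to equal that of the rest. The probes at an unadjusted p under 0.05 numbered 1799 in the main setting, 2839 with no filter, 1048 with no dye term, 961 when all 8 signals had to be above background, and 1569 to 2919 with 1 array left out. After median centring they numbered 9101 of 30986 tested, of which 199 were higher and 8902 lower with 12-month semen, against 933 and 866 in the main setting. The 3 member probes found there were lower too.

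Several directions turned. With the mean of pixels, FGF2 probe 1 stood at 0.0036, FGFR2 probe 1 at 0.016, FGFR4 probe 1 at -0.0024, SPRY2 at 0.031, SPRY4 at -1.614e-05 and DUSP6 at 0.017. Without background correction, FGF2 probe 1 stood at 0.049 and SPRY2 at 0.035, and in the authors' deposited table at 0.017 and 0.026. With arrays centred on their median, where the median over probes was -0.14, values were 0.070 for FGF2 probe 1, -0.23 for FGFR4 probe 1, -0.22 for PDGFRA, -0.086 for IFNT, -0.16 for ETV1, -0.063 for ETV5, -0.089 for DUSP1, -0.13 for FGF11, -0.17 for MAP2K2, -0.25 for ARAF and -0.36 for SDC3. Leaving out 1 array, FGF2 probe 1 ran from -0.069 to 0.058, FGFR2 probe 1 from -0.089 to 0.046, FGFR4 probe 1 from -0.096 to 0.12, SPRY2 from -0.21 to 0.15, DUSP6 from -0.11 to 0.054 and GRB2 probe 1 from -0.17 to 0.020. The median of the wider pathway list was -0.14 after median centring and -0.0011 to 0.039 with 1 array left out. The cause of these turns was not tested. The other settings, with no dye term, with no filter or with all 8 signals above background, could not test the directions of the genes named. With equally many arrays in each dye orientation, dropping the dye term left these ratios unchanged. The filters decided only which probes were tested, and the ratios of the probes kept did not change. With all 8 signals required, FGF2 probe 1, GRB2 probe 2, FOXA2, PTX3, PLCG1 and SPRY1 were no longer tested. Settings for the list genes were chosen after seeing the data. Small ratios near background are limited by signal: 6 of the 15 member probes could not be tested.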
